A study of Homo sapiens with 5 samples.

Results

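The annexin genes were examined in RNA sequencing data of 5 human cell lines, each with a single library. Annexins were taken as the 10 rows of the expression table whose gene name was ANXA1, ANXA2, ANXA3, ANXA4, ANXA5, ANXA6, ANXA7, ANXA9, ANXA11 or ANXA13, out of 57905 genes, and all 10 were found once. Of these, 4 derive from Merkel cell carcinoma (MCC in the plots), a neuroendocrine skin cancer (MKL-1, MKL-2, WaGa, MCC13), and REH derives from a leukemia of precursor B cells, labelled as pre-B-cell acute lymphoblastic leukemia and written pre-B-ALL in the plots. All 5 carried the genotype label WT and were cultured in RPMI medium with fetal bovine serum; the labels name no treatment. MKL-1, MKL-2 and WaGa are known as lines that carry Merkel cell polyomavirus and MCC13 as a line without it. Levels were TPM, an abundance scaled by transcript length and to the same total in every library, so annexins can be set side by side within a line. No line had a replicate, so line and library cannot be told apart, each SD is a spread between lines, and the read depth behind a value is unknown.

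Annexins are cytosolic proteins that bind acidic phospholipids, chiefly phosphatidylserine, when calcium rises. Each has a conserved core of annexin repeats, which holds the calcium and membrane binding sites, and a variable amino terminus that binds partners such as the small S100 proteins. They are known for roles in exocytosis, endosome traffic, repair of the plasma membrane and the resolution of inflammation.

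The labelled cell types were checked against marker genes. All 9 Merkel and neuroendocrine markers reached 1 TPM in WaGa, MKL-1 and MKL-2, where they summed to between 3871 and 7432 TPM. In MCC13 only SYP, a synaptic vesicle protein, reached 1 TPM, the markers summed to 5.10 TPM, and ATOH1, INSM1, ISL1 and KRT20 were listed at 0. In REH 6 of 7 pre-B markers reached 1 TPM, while VPREB1 was listed at 0. MCC13 therefore bore the Merkel cell carcinoma label without the defining Merkel transcripts. Between 15949 and 16921 genes reached 1 TPM in a line.

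Some annexins were measured in every line and others at an appreciable level in MCC13 alone. ANXA2, ANXA4, ANXA5, ANXA6, ANXA7, ANXA9 and ANXA11 reached 1 TPM in all 5 lines. ANXA1 and ANXA3 reached it in MCC13 alone. ANXA13, known as an intestinal annexin, reached it in none, with at most 0.0353 TPM (WaGa). MCC13 held the highest level of 8 of the 10 annexins, the exceptions being ANXA9 and ANXA13.

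**Figure D1:**
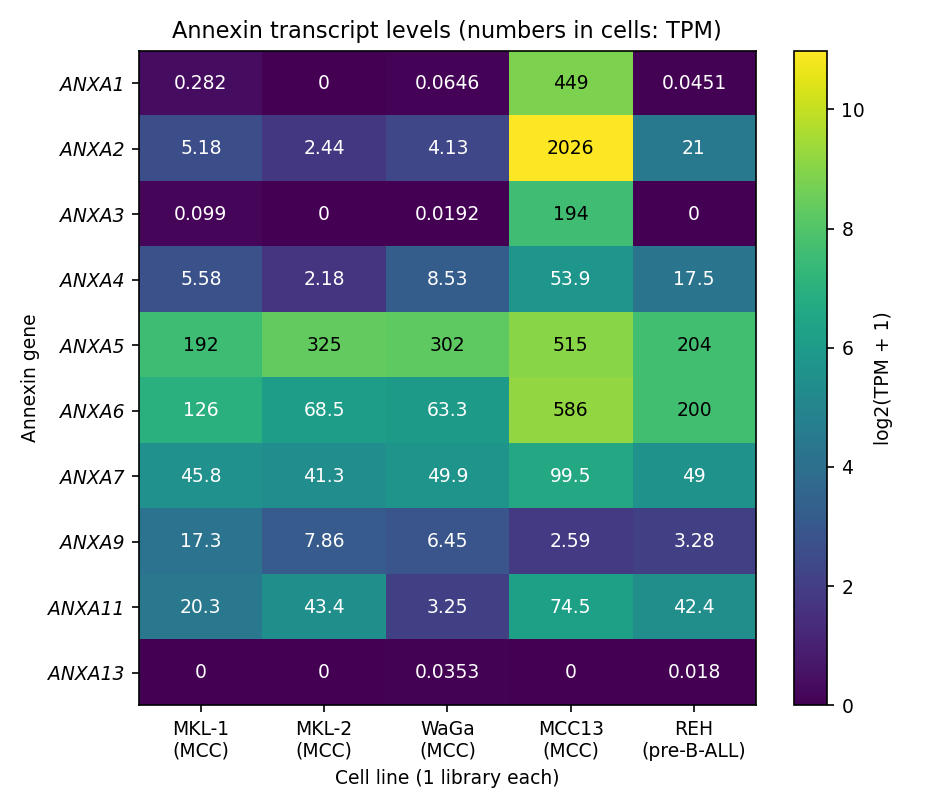
Heat map of the 10 annexins (rows) in the 5 cell lines (columns), coloured by log2(TPM + 1), with the TPM printed in each cell. ANXA1, ANXA2 and ANXA3 are bright in the MCC13 column alone, ANXA5, ANXA6 and ANXA7 are at 41.3 TPM or more in every line, and ANXA13 is dark throughout.

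The summed level of the 10 annexins was 491 TPM in MKL-2, 413 TPM in MKL-1, 438 TPM in WaGa, 538 TPM in REH and 4001 TPM in MCC13. MCC13 thus stood apart from 4 lines whose sums lay close together. The leading annexin also differed. ANXA5 made up 69.0% of the sum in WaGa, 66.3% in MKL-2, 46.6% in MKL-1 and 38.0% in REH, but 12.9% in MCC13. ANXA2 made up 50.6% of the sum in MCC13 and at most 3.90% elsewhere (REH). ANXA6 took 30.5% in MKL-1 and 37.2% in REH, but between 13.9% and 14.6% in MKL-2, WaGa and MCC13. In total RNA of a culture, fewer cells with a transcript and less transcript per cell cannot be told apart.

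**Figure D2:**
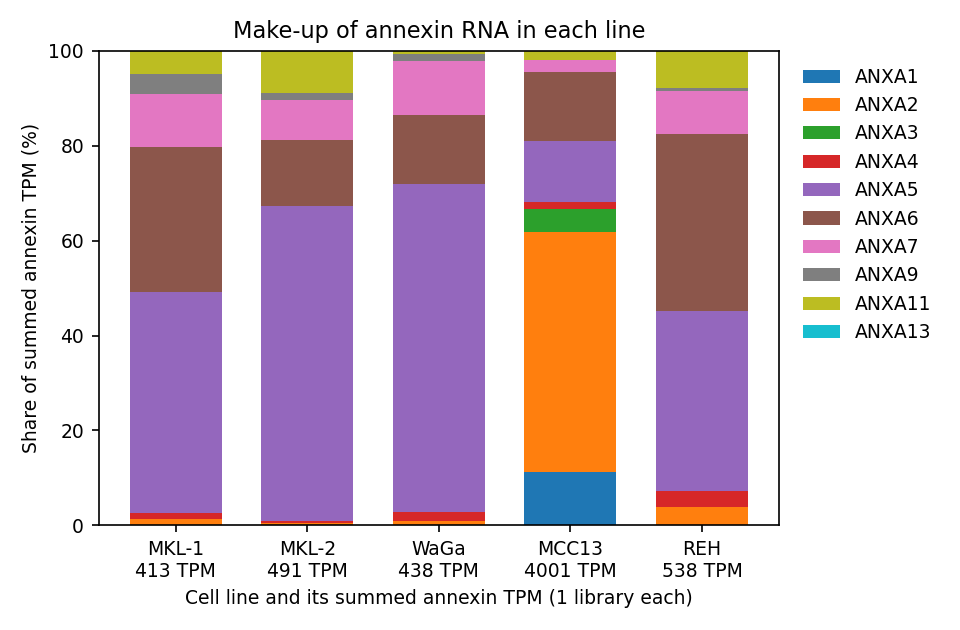
Stacked bars of each annexin's share (%) of the summed annexin TPM in each cell line, with the sum in TPM under each bar. ANXA5 and ANXA6 make up most of the bars of MKL-1, MKL-2, WaGa and REH, and ANXA2 makes up 50.6% of the MCC13 bar.

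Each Merkel cell carcinoma line was compared with the other 3 by the same test (limma on log2(TPM + 1), genes reaching 1 TPM in any of the 4 lines, Benjamini-Hochberg adjusted p under 0.05). In MCC13, ANXA1, ANXA2 and ANXA3 were higher and no annexin was lower. Of all genes, 6.47% of 20698 tested genes were higher in MCC13 and 2.47% were lower. Of the 10 annexins 9 were tested, and ANXA1 and ANXA3 entered the test only through their level in MCC13, so the count of 3 is a description. Over all genes tested the median difference was -0.30, which quantile normalization moved to -0.13.

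These 3 genes are shown first by the sequences around their start sites, because they moved together in MCC13, with ANXA5, the leading annexin of the other lines, for contrast. The sequences are RefSeq promoters of build GRCh38.p14, from 250 bases before to 50 after the start, on the gene's strand and written 5′ to 3′. Capitals mark matches on either strand to 4 motifs: TATAAA (the TATA box), GGGCGG (the GC box), GGAATG (the TEAD motif) and TGANTCA (the AP-1 motif).
ANXA1, chr9:73151615-73151914, plus strand: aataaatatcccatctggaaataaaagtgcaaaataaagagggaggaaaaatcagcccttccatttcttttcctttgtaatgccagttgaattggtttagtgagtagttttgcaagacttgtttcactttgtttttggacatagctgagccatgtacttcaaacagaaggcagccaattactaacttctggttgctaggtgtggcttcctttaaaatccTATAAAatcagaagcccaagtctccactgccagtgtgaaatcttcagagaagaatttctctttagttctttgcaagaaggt
ANXA2, chr15:60397937-60398236, minus strand: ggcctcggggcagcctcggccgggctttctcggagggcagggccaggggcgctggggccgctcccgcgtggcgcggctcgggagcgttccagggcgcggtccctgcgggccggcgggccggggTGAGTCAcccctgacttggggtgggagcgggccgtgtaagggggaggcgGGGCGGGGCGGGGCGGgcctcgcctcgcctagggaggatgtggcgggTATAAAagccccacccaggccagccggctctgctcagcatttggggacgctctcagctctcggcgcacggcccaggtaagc
ANXA3, chr4:78551520-78551819, plus strand: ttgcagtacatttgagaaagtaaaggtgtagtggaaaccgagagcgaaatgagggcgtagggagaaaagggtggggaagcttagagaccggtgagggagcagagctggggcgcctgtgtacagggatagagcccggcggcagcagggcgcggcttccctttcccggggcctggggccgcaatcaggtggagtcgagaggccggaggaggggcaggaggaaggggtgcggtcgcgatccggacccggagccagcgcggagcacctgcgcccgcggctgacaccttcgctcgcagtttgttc
ANXA5, chr4:121696931-121697230, minus strand: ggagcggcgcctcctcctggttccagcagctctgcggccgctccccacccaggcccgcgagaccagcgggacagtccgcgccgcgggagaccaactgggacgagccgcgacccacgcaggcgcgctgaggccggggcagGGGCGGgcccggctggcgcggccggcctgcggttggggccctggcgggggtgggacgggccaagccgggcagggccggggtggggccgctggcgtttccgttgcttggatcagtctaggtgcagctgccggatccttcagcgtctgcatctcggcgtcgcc

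None of the 4 motifs was in all 3 promoters. TATAAA began 31 bases before the start in ANXA1 and in ANXA2, and was in neither the ANXA3 nor the ANXA5 window. It is in 11.5% of the 35116 promoters of the table. The ANXA2 window also held TGAGTCA, which fits the AP-1 motif, 127 bases before the start, and 3 GC boxes that overlap by their end bases. TGANTCA is in 7.71% and GGGCGG in 45.0% of all promoters. GGAATG, in 14.0% of all promoters, was in none of the 13 windows of the 9 annexins in the table. The windows also differed in CpG content, the density of the dinucleotide that DNA methylation acts on. ANXA1 held 0 CpG sites in 300 bases, whereas ANXA2 held 32, ANXA3 25 and ANXA5 36. The ratio of observed to expected CpG was 0.76, 0.87 and 0.83 in the latter 3, against a median of 0.58 over all promoters. The single ANXA9 window held 5 sites, at a ratio of 0.19. Such matches describe letters in these windows and say nothing of binding.

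ANXA1 (ENSG00000135046, chromosome 9) encodes annexin A1, a glucocorticoid-induced protein that limits phospholipase A2 and, once secreted, acts on formyl peptide receptors. Its level was 449 TPM in MCC13, 0.282 TPM in MKL-1, 0.0646 TPM in WaGa and 0.0451 TPM in REH, and it was listed at 0 in MKL-2. MCC13 was the single line with an appreciable level, and no other line came within reach of it. On the log2(TPM + 1) scale MCC13 exceeded the other 3 Merkel cell carcinoma lines by 8.67 ± 0.39 (SE, limma, adjusted p = 0.00855). Differences on this scale understate changes from levels near 0.

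ANXA2 (ENSG00000182718, chromosome 15) encodes annexin A2, which joins S100A10 in a complex that gathers plasminogen and its activator at the cell surface. Its level was 2026 TPM in MCC13, 2.44 TPM in MKL-2, 5.18 TPM in MKL-1, 4.13 TPM in WaGa and 21.0 TPM in REH. In MCC13 it ranked 31 among all 57905 genes, and in the other lines between 7542 (REH) and 14275 (MKL-2). MCC13 stood 517-fold above the mean of the other 3 Merkel cell carcinoma lines (3.92 ± 1.38 TPM, SD, n = 3) and 96.6-fold above REH. The difference from the other 3 was 8.73 ± 0.46 on the log2 scale (SE, limma, adjusted p = 0.00872).

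The processed pseudogenes of ANXA2 can share its reads, since their GENCODE 29 transcripts match ANXA2 transcripts at 98.4% (ANXA2P2), 93.6% (ANXA2P1) and 91.3% (ANXA2P3) identity over the aligned bases. ANXA2P2 stood at 21.3 TPM in MCC13 and no higher than 1.12 TPM elsewhere, ANXA2P1 at 1.91 TPM in MCC13, and ANXA2P3 at 0.150 TPM. Adding all 3 to ANXA2 gave 2050 TPM in MCC13, 3.59 TPM in MKL-2, 5.31 TPM in MKL-1, 4.23 TPM in WaGa and 22.0 TPM in REH. The order of the lines for the sum was that for ANXA2 alone.

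ANXA3 (ENSG00000138772, chromosome 4) encodes annexin A3, found on granule membranes of neutrophils. Its level was 194 TPM in MCC13, 0.0990 TPM in MKL-1 and 0.0192 TPM in WaGa, and it was listed at 0 in MKL-2 and REH. As with ANXA1, MCC13 was the only line above 1 TPM. MCC13 exceeded the other 3 by 7.55 ± 0.32 (SE, limma, adjusted p = 0.00855).

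Calls in this comparison rest on 1 MCC13 library and a spread taken from the other 3 lines. When any one of the other 3 lines was dropped (MKL-1, MKL-2 or WaGa), ANXA1, ANXA2 and ANXA3 kept differences of 8.59 to 8.77, 8.49 to 8.91 and 7.52 to 7.59, but none passed (limma, adjusted p = 0.133 without MKL-1, 0.0893 without MKL-2 and 0.119 without WaGa). Nor did any other gene of the table pass then, with 4414 to 4978 genes at an unadjusted p under 0.05.

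**Figure D3:**
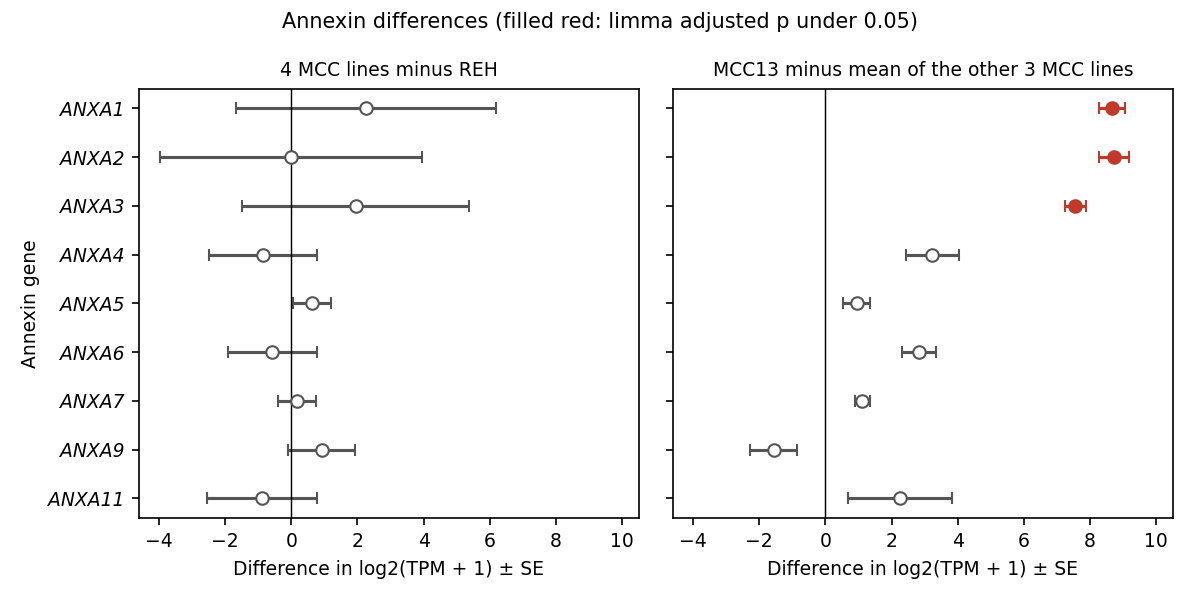
Differences in log2(TPM + 1) with their SE (bars) for the 9 tested annexins, on the left for the 4 Merkel cell carcinoma lines minus REH and on the right for MCC13 minus the mean of the other 3. Filled red points passed limma at an adjusted p under 0.05, which only ANXA1, ANXA2 and ANXA3 did, on the right.

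ANXA4, ANXA6, ANXA7, ANXA5 and ANXA11 were also highest in MCC13 but did not pass the test after adjustment. ANXA4, an annexin of epithelia that aggregates membranes, stood at 53.9 TPM in MCC13, 2.18 TPM in MKL-2, 5.58 TPM in MKL-1, 8.53 TPM in WaGa and 17.5 TPM in REH. Its difference between MCC13 and the other 3 was 3.23 ± 0.80 (SE, limma, adjusted p = 0.123). ANXA6, which carries a duplicated core and acts on endosomes and cholesterol traffic, stood at 586 TPM in MCC13, 68.5 TPM in MKL-2, 126 TPM in MKL-1, 63.3 TPM in WaGa and 200.2 TPM in REH. The MCC13 value was 6.81-fold the mean of the other 3 lines, with a log2 difference of 2.82 ± 0.51 (SE, limma, adjusted p = 0.0762). REH lay between MCC13 and the remaining lines for ANXA4 and ANXA6 alike.

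ANXA5, whose protein is the standard probe for phosphatidylserine on dying cells, varied least in relative terms along with ANXA7. ANXA5 stood at 515 TPM in MCC13, 325 TPM in MKL-2, 192 TPM in MKL-1, 302 TPM in WaGa and 204 TPM in REH, a 2.68-fold range. ANXA7, also called synexin, promotes fusion of secretory granules and stood at 99.5 TPM in MCC13, 41.3 TPM in MKL-2, 45.8 TPM in MKL-1, 49.9 TPM in WaGa and 49.0 TPM in REH. For ANXA7 the 4 lines other than MCC13 lay within 41.3 to 49.9 TPM, and MCC13 was 2.18-fold the mean of the other 3 Merkel cell carcinoma lines. Neither difference passed for MCC13, at 0.95 ± 0.41 for ANXA5 and 1.11 ± 0.23 for ANXA7 (SE, limma, adjusted p = 0.262 and 0.0923).

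ANXA11 and ANXA9 varied among the lines in other ways. ANXA11, which tethers RNA granules to lysosomes, stood at 3.25 TPM in WaGa, against 43.4 TPM in MKL-2, 20.3 TPM in MKL-1, 74.5 TPM in MCC13 and 42.4 TPM in REH. WaGa was the low line, and its difference from the other 3 Merkel cell carcinoma lines was -3.29 ± 0.90 (SE, limma, unadjusted p = 0.0183, adjusted p = 1), in a comparison where 0 of 20698 genes passed and 467 had an unadjusted p under 0.05. ANXA9, an atypical annexin whose core has lost calcium-binding residues, was the only tested member with its lowest level in MCC13, at 2.59 TPM. Its level was 7.86 TPM in MKL-2, 17.3 TPM in MKL-1, 6.45 TPM in WaGa and 3.28 TPM in REH, and the MCC13 difference was -1.57 ± 0.71 (SE, limma, adjusted p = 0.282).

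Among all 10 annexins MCC13 lay above the other 3 Merkel cell carcinoma lines for 8, where 27.7% of tested genes did so. It lay below them for ANXA9, where 43.4% of tested genes did so. At an unadjusted p under 0.05, 6 of the 9 tested annexins differed for MCC13 (ANXA1, ANXA2, ANXA3, ANXA4, ANXA6 and ANXA7), as did 5516 of all 20698 tested genes (26.6%), and none of the 9 differed for MKL-1 or MKL-2. ANXA1 and ANXA3 are again counted although only MCC13 brought them into the test. In limma with adjustment no annexin and no other gene passed for MKL-1, MKL-2 or WaGa (0% of tested genes in either direction). There 296, 638 and 467 genes had an unadjusted p under 0.05.

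Some markers of mesenchymal cells, but not all, were high in MCC13 together with ANXA1, ANXA2 and ANXA3. The 8 markers of fibroblasts and mesenchymal cells summed to 3578 TPM in MCC13, 793 TPM in REH and between 3.82 and 37.8 TPM in the remaining lines, and 5 of 8 reached 1 TPM in MCC13. Most of the MCC13 sum was VIM, vimentin, at 3125 TPM, followed by THY1 at 364 TPM. COL1A1 and COL1A2, chains of type I collagen, stood at 36.7 and 47.8 TPM there, and COL3A1 at 0.156 TPM. COL1A1 also stood at 20.3 TPM in REH and 7.42 TPM in WaGa, whereas COL1A2 reached at most 1.05 TPM in any other line (WaGa). DCN, decorin, ran the other way, at 0.186 TPM in MCC13 against 25.1 TPM in MKL-1, 18.9 TPM in WaGa and 2.08 TPM in MKL-2. PDGFRB, a growth factor receptor, was highest in REH, at 48.4 TPM against 4.11 TPM in MCC13, and LUM was listed at 0 in every line but MKL-1 (0.232 TPM). In REH, VIM stood at 724 TPM. The part of these genes in the annexin levels was not tested. Markers of keratinocytes, melanocytes, endothelium, and T and myeloid cells summed to at most 18.4, 4.56, 1.46 and 2.87 TPM in any line.

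The 4 Merkel cell carcinoma lines were also compared with REH. No annexin differed, while 1.09% of 22250 tested genes stood higher than in REH and 4.15% stood lower. REH lay inside the range of the 4 lines for each of the 10 annexins, whereas all 4 lay above REH for 27.0% of tested genes and below it for 25.6%. Of the 9 annexins tested, none had an unadjusted p under 0.05 in limma. The largest difference was that of ANXA1, at 2.25 ± 3.94 (SE, limma, adjusted p = 0.798), and that of ANXA2 was -0.02 ± 3.96 (SE, limma, adjusted p = 0.998). Differences of the other 7 ran from -0.89 (ANXA11) to 1.94 (ANXA3). ANXA1, ANXA2 and ANXA3 had the largest errors, from 3.43 to 3.96.

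Without MCC13, 7 annexins were tested against REH and again none passed (4.89% of 21247 genes were higher and 8.42% lower). ANXA2 had the largest difference, -2.20 ± 0.53 (SE, limma). The differences of ANXA4, ANXA11 and ANXA6 were -1.66 ± 0.80, -1.45 ± 1.57 and -1.28 ± 0.51 (SE, limma). That of ANXA9 was 1.31 ± 0.71 (SE, limma). ANXA5 and ANXA7 differed by 0.38 ± 0.41 and -0.10 ± 0.23 (SE, limma, adjusted p = 0.572 and 0.784).

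Genes that act with annexins were read from 3 lists. The list of annexin partners and receptors held 20 genes, 17 of them tested, of which 7 stood higher in MCC13 and 0 stood lower, with a median difference of 1.85 against -0.30 over all genes, of which 6.47% were higher and 2.47% lower. Of the 7, all but PLAU stayed under 1 TPM in the other 3 lines and entered the test only through MCC13, so the count and the median are descriptions. The SEs of these genes rest on those low levels. S100A10, the partner of annexin A2, stood at 78.5 TPM in MCC13 and 0.211 TPM in WaGa, and was listed at 0 in MKL-1, MKL-2 and REH (log2 difference 6.22 ± 0.31, SE, limma, adjusted p = 0.00855). S100A11, which binds the amino terminus of annexin A1, stood at 701 TPM in MCC13, at most 0.618 TPM in the other 3, and was listed at 0 in REH (8.89 ± 0.38, SE, limma, adjusted p = 0.00855). The other S100 genes of the list did not pass: S100A6 had 302 TPM in MCC13, against 9.94 to 36.9 TPM for the other 3 (3.84 ± 0.83, SE, limma, adjusted p = 0.102). S100A4 was lowest of the 5 lines in MCC13, at 0.311 TPM, and highest in REH, at 265 TPM, with a difference between MCC13 and the other 3 of -2.50 ± 1.44 (SE, limma, adjusted p = 0.368). REH held ANXA2 at 21.0 TPM with S100A10 listed at 0, and a link between their levels was not tested.

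The plasminogen activators PLAU, urokinase, and PLAT, tissue-type activator, rose in MCC13 as well. PLAU stood at 255 TPM there and at most 2.08 TPM in any other line, and PLAT at 31.0 TPM and at most 0.502 TPM. CAV1, caveolin-1, stood at 625 TPM in MCC13, at most 0.0220 TPM in the other 3 and 4.68 TPM in REH. The remaining 2 were low even in MCC13: TGM2, a transglutaminase, at 4.10 TPM and PLA2G4A, a cytosolic phospholipase A2, at 3.91 TPM. Their log2 differences ran from 2.28 (PLA2G4A) to 9.28 (CAV1), with limma adjusted p from 0.00855 to 0.0156. The formyl peptide receptor genes FPR1 and FPR2, whose proteins bind secreted annexin A1, were listed at 0 in MCC13, and FPR2 reached at most 0.0475 TPM in any line (MKL-1). FPR1 was listed at 0 in all 5 lines. Against REH, 1 of 17 genes of the list was higher in the Merkel cell carcinoma lines and 0 were lower. Of all tested genes, 1.09% were higher and 4.15% lower. The gene was CTTN, the actin regulator cortactin, at 85.3 to 211 TPM against 0.737 TPM (log2 difference 6.06 ± 0.61, SE, limma, adjusted p = 0.0137).

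**Figure D4:**
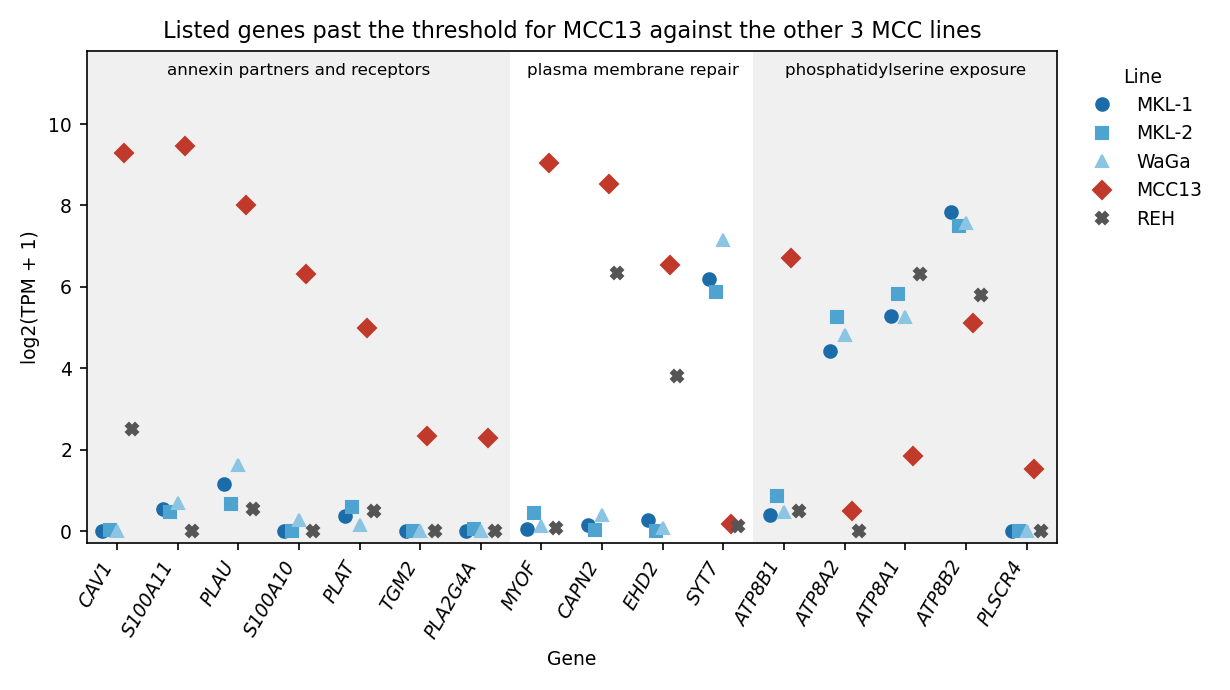
Levels on the log2(TPM + 1) scale of the listed genes that passed the test for MCC13, by cell line (symbols) and list (bands). CAV1, which is on the first 2 lists, is drawn once. MCC13 (diamonds) is the highest symbol for most partner and repair genes, with SYT7, ATP8A2, ATP8A1 and ATP8B2 as the exceptions where MCC13 lies below the other Merkel cell carcinoma lines.

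Of 17 genes for plasma membrane repair, a process in which annexins gather at the wound, 4 were higher in MCC13 and 1 was lower, with a median difference of 0.52 (all genes: 6.47% higher, 2.47% lower, median -0.30). All 4 higher genes were under 1 TPM in the other 3 lines and were tested only because of MCC13, so this count too is a description. Their SEs likewise rest on those low levels. MYOF, myoferlin, stood at 524 TPM in MCC13 and no higher than 0.356 TPM in any other line. CAPN2, the large subunit of a calcium-activated protease, stood at 367 TPM in MCC13, no higher than 0.307 TPM in the other 3 and at 79.6 TPM in REH. EHD2, an ATPase of caveolae, stood at 91.4 TPM against at most 0.210 TPM in the other 3 and 12.9 TPM in REH, and CAV1, on this list too, was the fourth. The log2 differences of MYOF, CAPN2 and EHD2 came to 8.83 ± 0.40, 8.33 ± 0.38 and 6.41 ± 0.31 (SE, with the same limma adjusted p of 0.00855). SYT7, a calcium sensor of lysosome and granule exocytosis, was lower, at 0.131 TPM in MCC13 against 58.0 to 141 TPM (-6.23 ± 0.63, SE, limma, adjusted p = 0.0239). Against REH 1 of 17 was higher and 0 were lower, beside 1.09% and 4.15% of all tested genes. It was CHMP3, a subunit of the ESCRT-III scission complex, at 123 to 145 TPM against 34.4 TPM (1.92 ± 0.25, SE, limma, adjusted p = 0.025).

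The list for phosphatidylserine exposure held 16 genes of lipid transport between membrane leaflets, and 15 were in the table and tested. Annexins bind phosphatidylserine, but not every protein of the list need move that lipid itself. For MCC13, 2 were higher and 3 lower, with a median difference of -0.05, beside 6.47% higher and 2.47% lower over all genes. Both higher genes reached the filter only through MCC13. ATP8B1, a flippase subunit, stood at 104 TPM in MCC13 and no higher than 0.824 TPM in the other 3, and PLSCR4, a phospholipid scramblase family member, at 1.88 TPM in MCC13 and listed at 0 in the other lines. The flippase subunits ATP8A1, ATP8A2 and ATP8B2 were lower, at 2.62, 0.405 and 33.8 TPM in MCC13 against 37.2 to 55.8, 20.5 to 37.3 and 180 to 228 TPM. The 5 differences ran from -4.34 (ATP8A2) to 6.15 (ATP8B1), with limma adjusted p from 0.0112 to 0.0295. No gene of this list differed from REH in limma (the largest were ATP8A2, 3.74 ± 2.04, and XKR8, a scramblase, -1.90 ± 1.06, SE, adjusted p = 0.449 and 0.46). As for the annexins, no listed gene passed for MCC13, nor did CTTN or CHMP3 against REH, once a single line among MKL-1, MKL-2 and WaGa was dropped.

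The genes most like each annexin were found by the root mean square difference of log2(TPM + 1) over the 5 lines after centring each gene, among 12943 other genes at 10 TPM or more in a line. ANXA1 lay nearest to CLDN1, FSTL1 and MYL9 (distances 0.13, 0.15 and 0.21). ANXA2 lay nearest to GNG12, CAV1 and SRGN (0.35, 0.36 and 0.44), each of which has a low level in REH beside a high one in MCC13. ANXA3 lay nearest to CA8, MIR4435-1HG and LEPREL1 (0.07 to 0.10). The evenly expressed members had near neighbours too: CHMP2A, TMEM51 and CALR for ANXA5 (0.07 to 0.10), and OSTM1, MELK and PACS1 for ANXA7 (0.06 to 0.09). ANXA4 lay nearest to TMEM256-PLSCR3, INHBB and TPM4 (0.20 to 0.29), and ANXA6 to IKBIP, TLDC1 and SNORA73B (0.16 to 0.22). ANXA9 lay nearest to CRHR1-IT1, MXD1 and WDR31 (0.13 to 0.15), and ANXA11 to DDX60L, ARPC1B and PFKFB3 (0.17 to 0.36). Among the annexins themselves the closest pair was ANXA5 and ANXA7 (0.34), followed by ANXA1 and ANXA3 (0.46) and ANXA4 and ANXA6 (0.62). The distance is not scaled by the spread of a gene, so genes that vary little lie close even where their order of lines differs. The lowest line was MKL-1 for ANXA5 (192 TPM) and MKL-2 for ANXA7 (41.3 TPM). The farthest pair was ANXA2 and ANXA9 (4.02). The farthest was ANXA2 and ANXA9 (4.02). These distances cover 5 libraries, with no replicate. For genes near 0 in every line but MCC13, such as ANXA1 and ANXA3, a distance reflects little more than the levels in MCC13.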

How the data were processed

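The authors deposited TPM values for 57905 genes in 5 libraries. Tools named in the submitters' processing notes include StringTie 1.3.5, STAR 2.4.5b, SAMtools 0.1.19 and bcl2fastq 2.20, beside the builds hg19 and GRCh37. Neither the annotation nor any use of strand in counting is stated there. TPM keeps no depth, and an exact 0 can be a failed estimate. A change in abundant genes moves all others. One further column of values (1 column) matched no sample and was not used, and neither was the table of PAX5 exons.

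Differences were tested with limma 3.58.1 in R 4.3.3 on log2(TPM + 1), with a variance trend, 2-sided, over all genes reaching 1 TPM in any line compared, and adjusted over all of them (threshold 0.05). Where 1 line formed an arm, its variance was taken from the other arm. Descriptions and figures were made in Python 3.11.15. Promoters of 9 annexins were matched by symbol in a RefSeq table (GRCh38.p14), and none was matched for ANXA13. Protein sequences were not used here. Chromosomes came from GENCODE 29.

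The members and lists were chosen with earlier results of these data known. The text names all 10 annexins, ANXA2 pseudogenes, S100A10, S100A11, FPR1, FPR2, up to 6 passing members of each list (or, where none passed, the 2 with the largest differences), the 3 nearest genes of each annexin, and marker genes. PDCD6, SRC, XKR4, S100A4, S100A6 and PLA2G4A fall outside this rule and were named after their values were seen. PLSCR3 was not matched by name, and the gene named TMEM256-PLSCR3 was not counted for it.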

Additional observations from a re-analysis of the deposited data

Results flagged for a closer look

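Among the 4 Merkel cell carcinoma lines, 57 annexins and listed genes at 1 TPM or more in a line were checked for a line far from the others, by Dixon's ratio of the gap to the nearest line over the whole range on the log2(TPM + 1) scale. For normally distributed values, chance alone flags about 1 in 20 such groups (5%). Over all 20698 genes at 1 TPM or more in one of these lines, 2891 had such a line (14%). Of the 57 genes, 20 had such a line (35.1%), and it was MCC13 for 17 of them (29.8%). MCC13 stood apart in the same way for 1971 of all 20698 genes at 1 TPM or more in one of these lines (9.52%). Of the 15 genes with MCC13 far above, 13 were under 1 TPM in the other 3 lines and were checked only because of MCC13, so these shares describe the lists and are no result about them. MCC13 stood far above the rest for ANXA1 (449 TPM), ANXA2 (2026 TPM) and ANXA3 (194 TPM). Among partner genes it stood far above for S100A10 (78.5 TPM), S100A11 (701 TPM), PLAT (31.0 TPM), PLAU (255 TPM), PLA2G4A (3.91 TPM), TGM2 (4.10 TPM) and CAV1 (625 TPM). The same held for MYOF (524 TPM), CAPN2 (367 TPM) and EHD2 (91.4 TPM) of the repair list, and for ATP8B1 (104 TPM) and PLSCR4 (1.88 TPM) of the phosphatidylserine list. MCC13 stood far below for ATP8A1 (2.62 TPM) and ATP8B2 (33.8 TPM).

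The remaining 3 genes stood apart in other lines. PDCD6, a calcium sensor that binds ANXA7 and ANXA11 proteins, stood at 1851 TPM in MKL-2 against 89.2 to 122 TPM in the other 3 lines and 75.1 TPM in REH. SRC, a tyrosine kinase that phosphorylates annexin A2, was lowest in MKL-2 at 16.4 TPM, and XKR4, a scramblase, was highest in WaGa at 1.16 TPM. XKR4 reached at most 0.00299 TPM in the other 3 lines and was checked only because of WaGa.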

How the results depend on the processing

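No paired analysis was possible because the labels give no replicate numbers that groups share. In the comparison of MCC13 with the other 3 lines, no annexin changed direction under any alternative run, and ANXA1, ANXA2 and ANXA3 passed under all 6 other settings. Leaving out MKL-1, MKL-2 or WaGa took the annexins that passed from 3 to 0, and all genes from 1340 higher and 512 lower to 0 and 0, with 1 residual degree of freedom. The genes higher in MCC13 numbered 2807 without a filter and 543 at a mean of 5 TPM or more. For the Merkel cell carcinoma lines against REH, 243 genes were higher and 923 lower. The counts were 403 and 482 with a pseudocount of 0.1, and 160 and 128 at a mean of 5 TPM or more. The lower genes numbered 3346 without a filter and 614 without a variance trend. Leaving out lines gave 0 to 1038 higher and 0 to 1790 lower. There no annexin passed under any alternative. ANXA2 changed sign to 0.044 without mitochondrially encoded genes and to 0.58 without MKL-1, 0.87 without MKL-2 and 0.67 without WaGa (-2.20 without MCC13). ANXA7 changed sign to -0.10 without MCC13. For MKL-2 against the other 3 lines, 602 genes were higher and 2 lower without a filter, none of them an annexin. The cause of these shifts was not tested. Depth is unknown, so how far it limits low values cannot be said.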
